A study of Sus scrofa with 8 samples.

Results

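The genes described here are 6 transcripts of heat shock proteins and chaperones in the middle jejunum of piglets. The members were the probes whose RefSeq accession named one of 8 listed genes, HSP90AA1, HSP90AB1, HSPA8, HSPA5, HSPB1, HSPD1, HSPH1 and HSP70.2. Of these, 6 had such a probe, out of 3216 genes that could be named on the array. HSPA5, the main chaperone of the endoplasmic reticulum, and HSPD1, the chaperonin of mitochondria, had no probe with a matching accession and were not analysed here. The 6 genes were covered by 19 probes, and the probe with the highest mean signal over all arrays stood for each gene.

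The study compared 4 suckling piglets with 4 weaned piglets, all Duroc × Landrace, from 4 litters. The suckling piglets stayed with the sow until they were sampled at 25 days of age. The weaned piglets were taken from the sow at 21 days and moved to nursery pens with free access to a basal diet and water, so they were sampled at the same age and 4 days past weaning. One piglet gave the RNA for each array, from a segment of about 2 cm of the whole jejunal wall that was washed, frozen and later extracted.

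Heat shock proteins are molecular chaperones, which bind unfolded stretches of other proteins and help them to fold, refold or be degraded. When unfolded proteins accumulate, as under heat, lack of oxygen or other stress, heat shock factor HSF1 switches on the inducible members, among them HSP70.2, HSPH1, HSP90AA1 and HSPB1. HSPA8 and HSP90AB1 are the constitutive relatives, made in most cells at all times. In the intestinal lining, inducible HSP70 and HSPB1 are known for protecting epithelial cells and their junctions from injury.

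Levels are given as the log2 of the processed signal minus the 75th percentile of the same array, so a level of 0 marks that percentile. Because probes bind with different strength, levels are compared between piglets and not between genes. The 75th percentile itself was 245 intensity units in suckling replicate 1 and between 317.5 and 395 on the other 7 arrays, and 67.6% to 71.0% of probes exceeded background clearly, by the scanner software's flag. All suckling arrays lay on 1 slide and all weaned arrays on another, so an effect of the slide and an effect of weaning cannot be told apart for any gene below. Of the absorptive epithelium that defines the jejunum, APOA4, an apolipoprotein of enterocytes, and ANPEP, a brush border peptidase, were well above background on all 8 arrays. The summed level of 5 epithelial markers ranged from 358 to 1541 in suckling and from 475 to 873 in weaned piglets, as multiples of the 75th percentile, and was lowest in suckling replicate 1. Such a sum mostly follows the probes with the strongest signal. APOA4, ANPEP and FABP2 spanned 4.58-fold to 7.065-fold over the piglets and were lowest in suckling replicate 1, as was CDH1. EPCAM, the remaining marker, spanned 1.43-fold and was lowest in weaned replicate 1. The part of the amount of epithelium in this sum was not tested.

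None of the 6 heat shock genes passed the test between weaned and suckling piglets (limma, Benjamini-Hochberg adjusted over 30552 tested probes, threshold 0.05). Over all tested probes 0.177% passed that threshold. At an unadjusted p under 0.05 by limma, 0 of the 6 members passed, against 12.3% of all tested probes. The values of the weaned and suckling piglets overlapped for all 6 genes, whereas the groups did not overlap for 7.76% of all tested probes. The members' differences, weaned minus suckling, ran from -1.58 to 0.29 on the log2 scale with a median of -0.09, and 3 were above 0 and 3 below, though HSPB1 changed sides under quantile or median scaling and the deposited table, HSP90AB1 under median scaling and HSP90AA1 under normexp background correction. The median over all tested probes was 0.04. What HSP70.2, HSPH1 and HSP90AA1 did show was a wide spread between piglets of the same group, whereas HSP90AB1 varied little. The spread of each gene is given below.

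**Figure D1:**
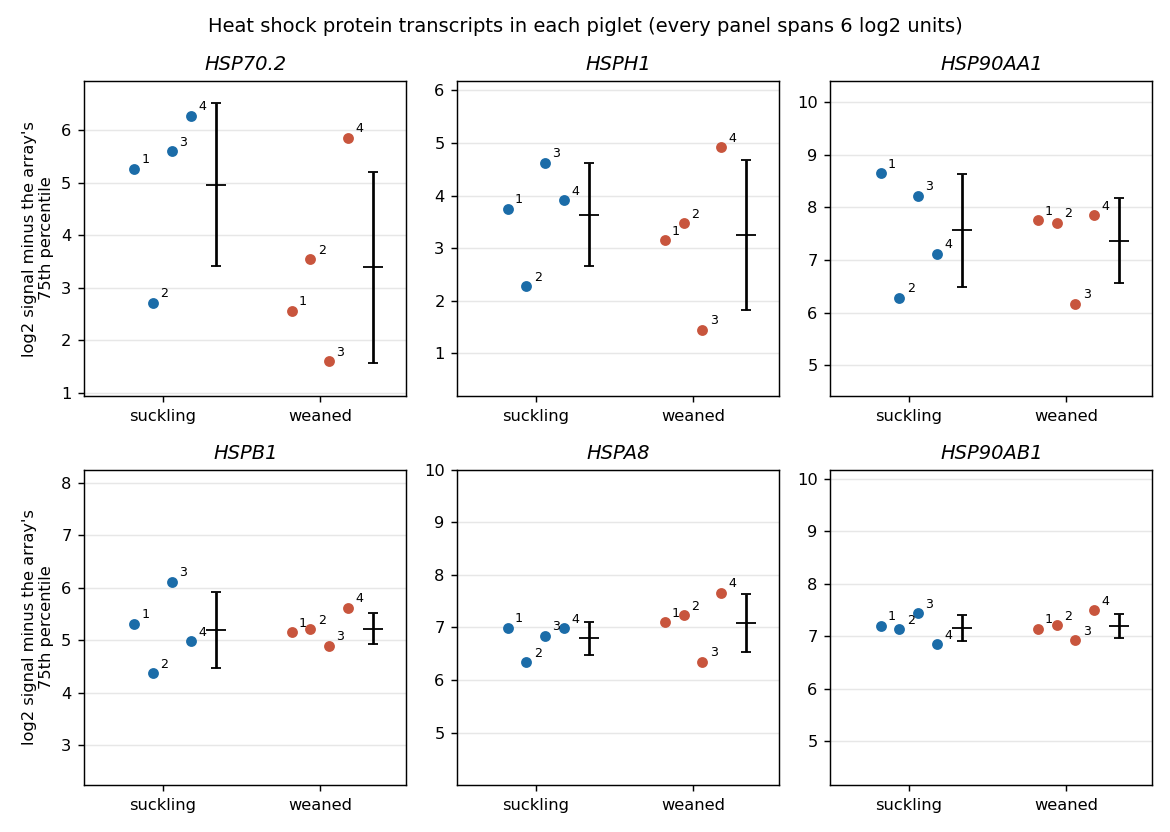
Level of each heat shock gene in each piglet (log2 signal minus the 75th percentile of the array). Points are piglets with their replicate numbers, bars are the mean ± SD of 4 piglets, and every panel spans the same number of log2 units. HSP70.2 runs from 1.60 to 6.27 over the 8 piglets and HSP90AB1 from 6.84 to 7.49, and the groups overlap in every panel.

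HSP70.2 is the stress-inducible HSP70 of the pig, which binds newly unfolded proteins in the cytosol. In the suckling piglets its level was 5.27, 2.71, 5.60 and 6.27 in replicates 1 to 4. In the weaned piglets it was 2.56, 3.54, 1.60 and 5.85. Suckling replicate 2 lay within the range of the weaned piglets, and weaned replicate 4 lay within the range of the suckling piglets. The group means were 4.97 ± 1.56 and 3.39 ± 1.82 (log2, SD, n = 4 per group). The weaned mean was 1.58 lower on the log2 scale, with a 95% interval of the difference from -3.81 to 0.65 (SE 0.99, limma adjusted p = 0.554). That interval runs from a 0.0714-fold to a 1.57-fold level in weaned piglets, so with 4 piglets per group neither a large fall nor a modest rise could be told from no difference. Leaving out weaned replicate 4 moved the difference to -2.40, and leaving out weaned replicate 3 moved it to -0.98.

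The highest and the lowest piglet differed 25.6-fold in HSP70.2. Within the groups the span was 11.8-fold among suckling and 19.1-fold among weaned piglets. A second probe of the gene, dimmer, spanned 46.1-fold and was likewise lowest in weaned replicate 3, but it was highest in weaned replicate 4 instead of suckling replicate 4. The gene table lists HSPA1A and HSPA1B as other names of HSP70.2 and gives it a position that overlaps that of HSPA1L. Near-identical HSP70 copies may bind the same probes, so the values may hold more than 1 gene's transcripts. HSPA1L, the relative at the same place, did not follow HSP70.2: its level was -1.91, -0.68, -1.43 and 0.19 in suckling and -1.44, -0.84, -0.22 and -0.61 in weaned piglets.

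HSPH1, also called HSP105 or HSP110, is an HSP70 relative that releases the nucleotide from HSP70 and so restarts its cycle. Its level was 3.75, 2.28, 4.62 and 3.91 in suckling replicates 1 to 4 and 3.15, 3.47, 1.44 and 4.92 in weaned replicates 1 to 4. Weaned replicate 3 was the lowest and weaned replicate 4 the highest of all 8 piglets, so the weaned group enclosed the suckling group. The means were 3.64 ± 0.98 and 3.24 ± 1.43 (log2, SD, n = 4 per group), a difference of -0.39 with a 95% interval from -2.01 to 1.23 (SE 0.72, limma adjusted p = 0.858). The span over the piglets was 11.1-fold, and both probes of the gene were lowest in weaned replicate 3 and highest in weaned replicate 4. Without weaned replicate 3 the difference was 0.21, so its direction rested on that piglet.

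HSPA8, the constitutive HSC70, folds new proteins and strips the coat from clathrin vesicles. Its level was 6.99, 6.34, 6.84 and 6.99 in suckling and 7.10, 7.23, 6.35 and 7.66 in weaned piglets. Suckling replicate 2 and weaned replicate 3 were the lowest of their groups and lay side by side. The means were 6.79 ± 0.31 and 7.09 ± 0.55 (log2, SD, n = 4 per group), and the difference of 0.29 had a 95% interval from -0.34 to 0.93 (SE 0.28, limma adjusted p = 0.711). The span over the piglets was 2.50-fold, or 1.32 on the log2 scale, which became 2.78 with normexp background correction, and the gene had a single probe.

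HSP90AA1 encodes the inducible form of cytosolic HSP90, which holds kinases and steroid receptors ready for activation. Its level was 8.65, 6.28, 8.22 and 7.12 in suckling and 7.75, 7.71, 6.17 and 7.85 in weaned piglets. Suckling replicate 2 and weaned replicate 3 were again the lowest. The other 3 weaned piglets lay close together, between 7.71 and 7.85. The means were 7.57 ± 1.07 and 7.37 ± 0.80 (log2, SD, n = 4 per group), with a difference of -0.20 and a 95% interval from -1.46 to 1.07 (SE 0.56, limma adjusted p = 0.913). The span over the piglets was 5.59-fold.

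The 6 probes of HSP90AA1 did not agree on the highest piglet. The brightest was highest in suckling replicate 1, and the other 5 were highest in suckling replicate 3. All 6 were lowest in suckling replicate 2 or weaned replicate 3, 3 probes in each. Their differences ran from -0.48 to 0.04, with 4 below 0 and 2 above, and none of the 6 probes passed the threshold. The direction of the brightest probe also turned without suckling replicate 1, suckling replicate 3 or weaned replicate 3, to 0.16, 0.02 and 0.20.

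HSP90AB1 encodes the constitutive HSP90 and was the steadiest of the 6. Its level was 7.20, 7.14, 7.44 and 6.84 in suckling and 7.14, 7.21, 6.93 and 7.49 in weaned piglets. The means were 7.15 ± 0.25 and 7.19 ± 0.23 (log2, SD, n = 4 per group), and the difference of 0.04 had a 95% interval from -0.38 to 0.45 (SE 0.18, limma adjusted p = 0.948). On the fold scale this interval reaches from 0.771 to 1.37, the narrowest of the 6 genes. All 8 piglets lay within a 1.57-fold span, and the 6 probes of the gene spanned 1.54-fold to 1.76-fold. With normexp background correction, however, the span of the brightest probe widened from 0.65 to 2.51 on the log2 scale, still the narrowest of the 6.

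HSPB1, the small heat shock protein HSP27, keeps unfolded proteins soluble and binds actin filaments, and is abundant in muscle as well as in epithelium. Its level was 5.31, 4.37, 6.12 and 4.99 in suckling and 5.16, 5.20, 4.89 and 5.62 in weaned piglets. The highest and the lowest piglet were both suckling, replicates 3 and 2, and the 4 weaned piglets lay between them. The means were 5.20 ± 0.73 and 5.22 ± 0.30 (log2, SD, n = 4 per group), with a difference of 0.02 and a 95% interval from -0.75 to 0.80 (SE 0.34, limma adjusted p = 0.985). Both probes of the gene were highest in suckling replicate 3 and lowest in suckling replicate 2, with differences of 0.02 and -0.08. The span was 1.74 on the log2 scale and 3.00 with normexp background correction. Suckling replicate 3 also had the highest summed level of 5 smooth muscle markers, 411 against 111 to 390 in weaned piglets and 200 to 246 in the other suckling piglets. The other piglets did not keep this order: weaned replicate 3, with the second highest muscle sum of 390, had the second lowest HSPB1, and suckling replicate 2, with the lowest HSPB1, had the second highest suckling sum of 246. The part of muscle content in the HSPB1 values was not tested, and in pieces of whole gut wall fewer cells of a type and less RNA per cell cannot be told apart.

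**Figure D2:**
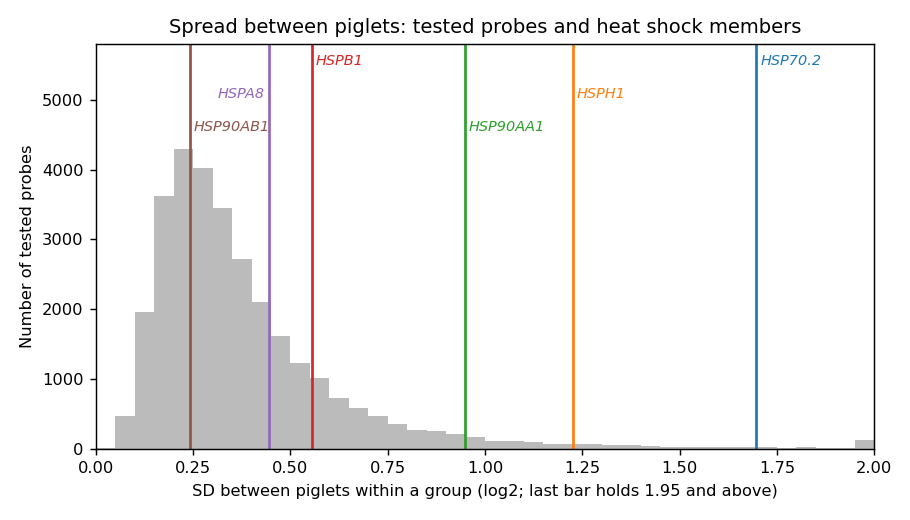
Number of tested probes (vertical axis) by the SD between piglets within a group (horizontal axis, log2 units), with the 6 heat shock genes as vertical lines. HSP70.2, HSPH1 and HSP90AA1 lie in the right tail at 1.70, 1.23 and 0.95, and HSP90AB1 lies at 0.24 near the peak.

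The spread between piglets of a group set the members apart from one another. Each array came from a different piglet, so differences between animals, tissue pieces, their handling and arrays cannot be told apart in this spread. The SD within groups, from the limma fit before moderation, was 1.70 for HSP70.2, 1.23 for HSPH1, 0.95 for HSP90AA1, 0.56 for HSPB1, 0.44 for HSPA8 and 0.24 for HSP90AB1 (log2, 8 piglets). Of all tested probes, 99.3% had a smaller SD than HSP70.2, 98.1% a smaller one than HSPH1 and 96.2% a smaller one than HSP90AA1. The shares were 83.9% for HSPB1 and 73.4% for HSPA8, and 31.1% for HSP90AB1, below the middle of the array. The 4 genes with the widest spread are the inducible members and the 2 with the narrowest are the constitutive ones; this order is a description of 8 piglets and was not tested. The median SD over all tested probes was 0.31.

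The piglets at the extremes were largely shared among the members. How often the same piglets were at the extremes over all tested probes was not counted, so this sharing is not shown to be particular to them. Weaned replicate 3 was among the 2 lowest piglets for all 6 genes and suckling replicate 2 for 4 of 6. Weaned replicate 4 was among the 2 highest for 5 of 6 and suckling replicate 3 for 4 of 6. These counts are of the probe that stands for each gene, and the probes of HSP90AB1 disagreed. Weaned replicate 3 was among the 2 lowest on 3 of its 6 probes, and weaned replicate 4 was among the 2 lowest on 3 and among the 2 highest on 1. Of the 19 probes of all members, HSP90AA1 and HSP90AB1 gave 6 each, and probes of the same gene are not independent. Over the 19, weaned replicate 3 was among the 2 lowest on 16 and suckling replicate 2 on 12. Suckling replicate 3 was among the 2 highest on 15 and weaned replicate 4 on 11. Suckling replicate 4 was the exception, with the highest HSP70.2 and the lowest HSP90AB1. The 75th percentile was 390.5 in weaned replicate 3 and 385 in weaned replicate 4. The share of probes well above background was lowest, at 67.6% and 68.0%, in suckling replicate 1 and weaned replicate 4, where all 6 members lay above their medians. It was 71.0% and 70.5% in suckling replicate 2 and weaned replicate 3, where 0 of the 6 did. The other arrays did not keep this order. In weaned replicate 2 the share was also 71.0%, with 3 members above their medians. It was 69.4%, 69.7% and 70.3% in suckling replicates 4 and 3 and weaned replicate 1, with 2, 5 and 2 members above. The part of this share in the heat shock values was not tested. The summed epithelial markers were 872 and 873 in weaned replicates 3 and 4, and the summed smooth muscle markers 390 and 381. Summed markers of dividing cells were 12.5 in weaned replicate 3 and 22.1 in weaned replicate 4, and those of leukocytes 8.45 and 12.4. The leukocyte markers were split between these piglets. CD163 was 2.26 and 3.23 and CD14 -0.63 and -0.37, but CD3E was 1.13 and 0.71 and CD2 -0.75 and -1.50. CD79A was -2.10 in both. The part of these markers in the heat shock values was not tested.

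**Figure D3:**
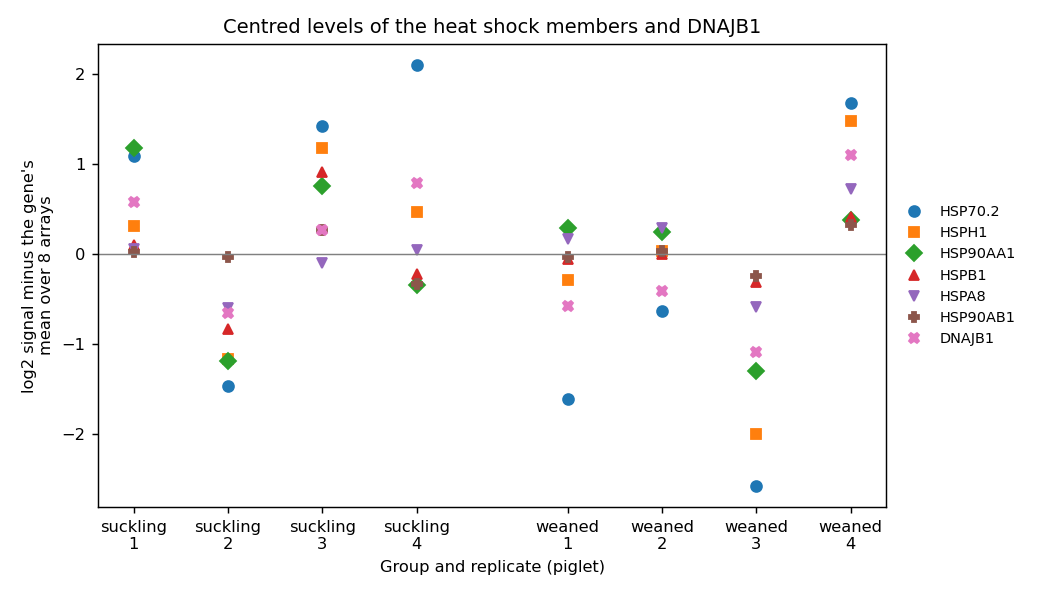
Level of the 6 heat shock genes and of DNAJB1 in each piglet, as log2 signal minus the mean of the gene over the 8 arrays. In weaned replicate 3 all 7 genes lie below their means, and in weaned replicate 4 all 7 lie above.

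Correlations were computed for all 15 pairs of members over the 8 piglets, with exact two-sided permutation p-values adjusted over the 15 pairs. All 15 coefficients were above 0, and 1 pair passed. The share of tested probes correlating with a gene at least as highly as its partner did was lowest for HSPH1 and HSP70.2, given below. It was highest for HSP90AB1 and HSP70.2, at 17.8% with HSP90AB1 and 15.9% with HSP70.2. For HSP90AA1 and HSP90AB1 it was 10.5% and 3.89%, and for HSPA8 and HSPB1 12.5% and 4.87%. The coefficients of HSP90AA1 fell without the 2 piglets farthest from its median, suckling replicate 2 and weaned replicate 3. Its r went from 0.68 to -0.17 with HSPA8, from 0.61 to -0.006 with HSP70.2 and from 0.78 to 0.15 with HSPH1. With HSPB1 it went from 0.76 to 0.52 and with HSP90AB1 from 0.61 to 0.58. HSPH1 and HSP70.2 had Pearson's r = 0.89 (exact permutation p = 0.00134, adjusted p = 0.0201) and Spearman's rho = 0.90 (exact permutation p = 0.00456, adjusted p = 0.0536). Without the 2 piglets farthest from the median of HSPH1, suckling replicate 2 and weaned replicate 3, r was 0.76. Of all tested probes, 0.151% correlated with HSPH1 at least as highly as HSP70.2 did, and 0.118% with HSP70.2 as highly as HSPH1 did. Within a slide there were 4 piglets, too few for a coefficient; after the mean of each group was subtracted, r over the 8 piglets was 0.93. With piglets then exchanged only within their own group, 0 of the 15 pairs passed (exact permutation, adjusted p = 0.0608 for this pair and unadjusted p = 0.00868). The pair no longer passed when suckling replicate 1 or 2 or weaned replicate 2, 3 or 4 was left out (exact permutation adjusted p = 0.0551 to 0.126), although r stayed between 0.83 and 0.93 over the 8 runs.

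The correlations of HSPA8 with both genes did not pass. Its r with HSP70.2 was 0.58 over the 8 piglets (exact permutation p = 0.145, adjusted p = 0.167; Spearman's rho = 0.33, exact permutation p = 0.428, adjusted p = 0.458) and 0.91 after centring on the group means (exact permutation within groups, adjusted p = 0.0608). Without suckling replicate 2 and weaned replicate 4, the piglets farthest from the median of HSPA8, its r with HSP70.2 was 0.38. With HSPH1 its r was 0.80 (exact permutation p = 0.0192, adjusted p = 0.0763; Spearman's rho = 0.52, exact permutation p = 0.197, adjusted p = 0.268) and 0.94 after centring (exact permutation within groups, adjusted p = 0.0651). Without the same 2 piglets its r with HSPH1 was 0.64. The lowest coefficient of the 15 pairs was that of HSP90AB1 with HSP70.2, r = 0.35 (exact permutation p = 0.383, adjusted p = 0.383; Spearman's rho = 0.29, exact permutation p = 0.501, adjusted p = 0.501). That pair had r = 0.86 without suckling replicate 4 and weaned replicate 4, so its low value rested on those piglets.

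The genes whose pattern over the 8 piglets was most like each member were sought among 2767 named genes. The measure was the root mean square difference after each gene was centred and divided by its SD over the piglets, where 0 is an identical pattern. Dividing by the SD removes the size of the change. How close the best of 2767 genes would come by chance over 8 piglets was not computed. For HSP70.2 the most like genes were RAB1A, a GTPase of transport from the endoplasmic reticulum to the Golgi, at 0.229 SD, and DNAJB1, the HSP40 that hands unfolded proteins to HSP70, at 0.257 SD. DNAJB1 was 4.87, 3.64, 4.56 and 5.09 in suckling and 3.72, 3.88, 3.20 and 5.40 in weaned piglets, so its lowest piglet was that of HSP70.2. For HSPH1 they were SUDS3 at 0.252 SD and TGFB1, a growth factor that restrains inflammation, at 0.271 SD. For HSPA8 they were GNPNAT1, an enzyme of amino sugar synthesis, at 0.274 SD and TMED10, a cargo receptor of the early secretory pathway, at 0.293 SD. For HSP90AA1 they were HIF1A, the transcription factor of the response to low oxygen, at 0.316 SD and KIF2A, a microtubule motor, at 0.336 SD. PRPF3 and IP6K1 were most like HSP90AB1 at 0.314 and 0.339 SD, and CNPY2 and R3HCC1L most like HSPB1 at 0.403 and 0.406 SD. A like pattern was often not a like span. On the log2 scale HIF1A spanned 0.47 against 2.48 for HSP90AA1. SUDS3 and TGFB1 spanned 0.84 and 0.63 against 3.47 for HSPH1, and RAB1A 1.12 against 4.68 for HSP70.2. GNPNAT1 and HSPA8 both spanned 1.32, and PRPF3 and IP6K1 spanned 0.76 and 0.94 against 0.65 for HSP90AB1.

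The wider folding network was read from 8 lists of companion genes. Of 137 listed genes, 38 had a named probe and 37 were tested, and 0 of the 37 passed the threshold in either direction (limma; 4 of 37 had an unadjusted p under 0.05, against 12.3% of all tested probes). The median log2 difference was 0.10, with 24 genes above 0 and 13 below, beside a median of 0.04 and 54.9% above 0 over all tested probes. The groups did not overlap for 5 of the 37, against 7.76% of all tested probes.

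**Figure D4:**
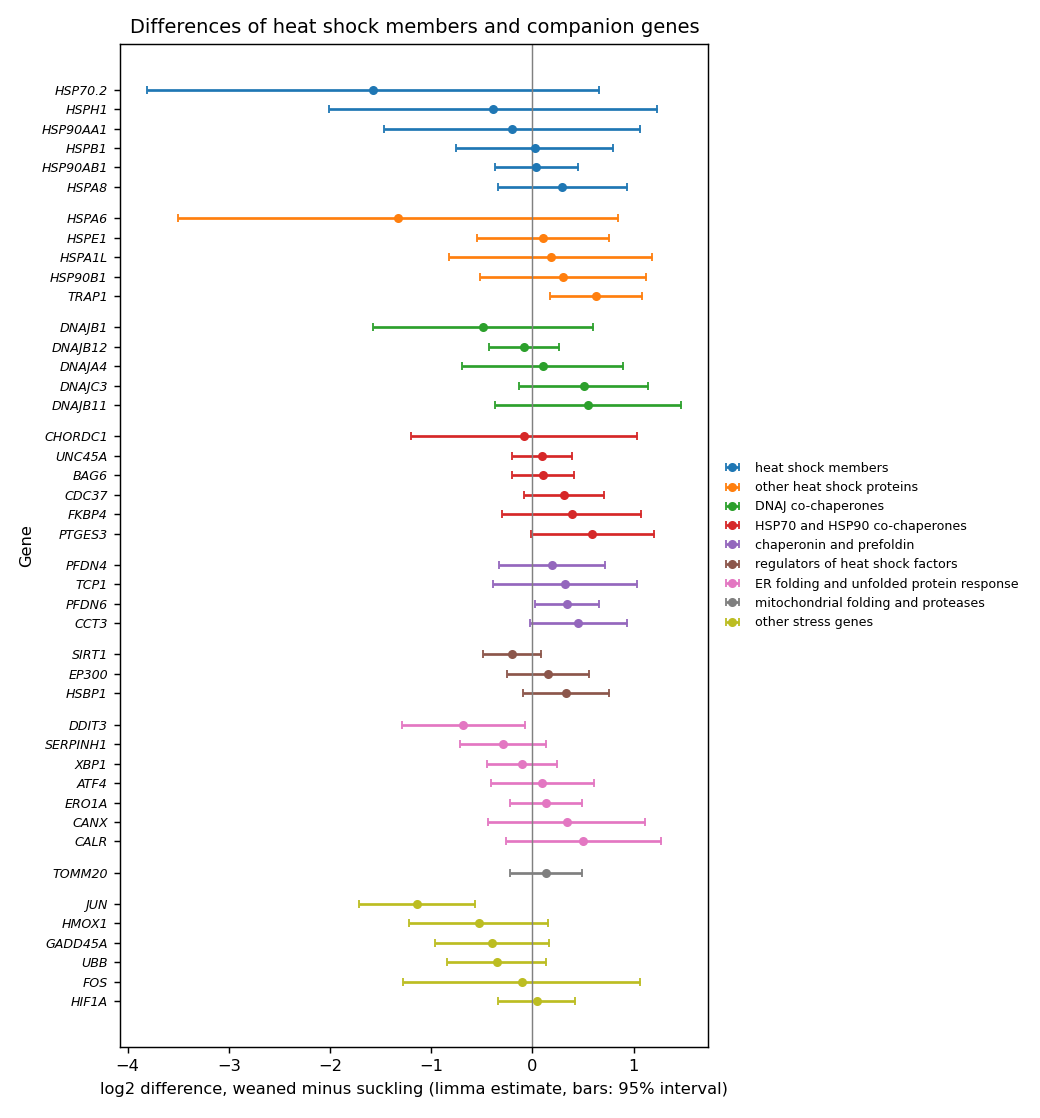
Log2 difference between weaned and suckling piglets for the 6 heat shock genes and 37 companion genes (points: limma estimates, bars: 95% intervals, colours: lists). The intervals of HSP70.2 and HSPA6 are the widest, and those of JUN, DDIT3, TRAP1 and PFDN6 leave out 0 before adjustment for the number of probes.

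Among the other heat shock proteins, HSPA6, a strictly inducible HSP70, was 2.61, 0.43, 0.81 and 4.04 in suckling and -0.66, -0.04, 0.24 and 3.03 in weaned piglets. Its span of 26.0-fold was close to that of HSP70.2, and suckling replicate 4 and weaned replicate 4 were highest in both genes. The difference of HSPA6 was -1.33 (SE 0.96, limma adjusted p = 0.608). TRAP1, the HSP90 of mitochondria, was 0.43, 1.20, 1.13 and 0.69 in suckling and 1.31, 1.66, 1.44 and 1.54 in weaned piglets. All 4 weaned piglets lay above all 4 suckling piglets, by 0.63 on average, without passing the threshold (SE 0.20, limma adjusted p = 0.282). HSP90B1, the HSP90 of the endoplasmic reticulum, differed by 0.30 (SE 0.36, limma adjusted p = 0.777).

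The co-chaperones of HSP70 and HSP90 did not pass either (limma, 0 of 5 DNAJ proteins and 0 of 6 others; also 0 and 0 at an unadjusted p under 0.05). DNAJB1 had a difference of -0.49 (SE 0.48, limma adjusted p = 0.719), below 0 like that of HSP70.2. DNAJC3 and DNAJB11, partners of HSPA5 in the endoplasmic reticulum, had differences of 0.51 and 0.55 (limma adjusted p = 0.506 and 0.617). PTGES3, the p23 protein of the HSP90 cycle, and CDC37, which brings kinases to HSP90, had 0.59 and 0.31 (limma adjusted p = 0.420 and 0.507). FKBP4, which links HSP90 to steroid receptors, had 0.39 (limma adjusted p = 0.645).

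All 4 tested genes of the chaperonin and prefoldin, the folding machines of actin and tubulin, had positive differences, with a median of 0.33, where 54.9% of all tested probes were above 0. PFDN6, a prefoldin subunit, was 1.49, 1.58, 1.31 and 1.53 in suckling and 1.98, 1.68, 1.87 and 1.76 in weaned piglets, without overlap, a difference of 0.34 (SE 0.14, limma adjusted p = 0.369). CCT3 and TCP1, subunits of the chaperonin ring, had 0.45 and 0.32 (limma adjusted p = 0.431 and 0.715).

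The list of heat shock factors and their regulators held no tested factor. HSBP1, which binds HSF1, had 0.33, EP300, an acetyltransferase, 0.15 and SIRT1, a deacetylase, -0.20 (limma adjusted p = 0.511, 0.770 and 0.554). SIRT1 was lower in all 4 weaned than in all 4 suckling piglets. The mitochondrial list was represented by TOMM20, an import receptor, with a difference of 0.14 (limma adjusted p = 0.763).

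In the endoplasmic reticulum, the 7 tested genes split into 4 with a difference above 0 and 3 below. DDIT3, the CHOP factor of the unfolded protein response, was -1.67, -1.44, -0.39 and -1.08 in suckling and -1.67, -2.05, -1.92 and -1.68 in weaned piglets. Its groups touched without overlapping, and the difference of -0.68 did not pass (SE 0.27, limma adjusted p = 0.358). SERPINH1, the collagen chaperone HSP47, had -0.29, and CALR, the lectin chaperone calreticulin, had 0.50 (limma adjusted p = 0.562 and 0.582).

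Among 6 other stress genes, 5 had a difference below 0. JUN, a subunit of the AP-1 transcription factor, was 6.69, 5.90, 6.70 and 7.10 in suckling and 5.21, 5.61, 5.65 and 5.35 in weaned piglets, without overlap. Its difference of -1.14 had the smallest p of the companion genes and did not pass over all tested probes (SE 0.25, limma adjusted p = 0.151). HMOX1, the haem oxygenase, had -0.53 and UBB, a polyubiquitin gene, -0.35 (limma adjusted p = 0.518 and 0.550).

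Markers of the cell types in the gut wall were read beside the heat shock genes. Of 49 markers listed, 31 were tested, and 0 of the 31 passed (limma, adjusted p). At an unadjusted p under 0.05 by limma, 5 of the 31 passed, against 12.3% of all tested probes. Median log2 differences were -0.04 for absorptive epithelium, 0.06 for smooth muscle, -0.51 for fibroblasts, -0.35 for endothelium, 0.35 for leukocytes and 0.73 for dividing cells. The brightest markers gave -0.56 and -0.01 for APOA4 and ANPEP, 0.01 and 0.06 for DES and MYL9 of smooth muscle, and -0.13 and -0.57 for DCN and COL1A2 of fibroblasts. They gave -0.34 and -0.33 for PECAM1 and VWF of endothelium, 0.64 and 0.18 for CD163 and CD3E of leukocytes, and 0.73 and 0.80 for CDK1 and CCNB1 of dividing cells. Of the tissues that should be absent, the liver markers SERPINA1 and ALB gave 1.02 and -0.36 and the skeletal muscle markers ACTA1 and CKM 0.01 and -0.13, with medians of -0.36 and -0.13 for the lists. The summed level of the 3 liver markers was 0.901 to 1.56 in suckling and 1.46 to 4.43 in weaned piglets, as multiples of the 75th percentile. That sum followed SERPINA1, which reached 2.13 on the log2 scale in weaned replicate 2. ALB was at most -3.57 and TTR at most -2.24 in any piglet. TTR differed by -1.17, below 0 like ALB, and was well above background in 3 suckling piglets and 1 weaned piglet. The summed level of the 3 skeletal muscle markers was 36.5 to 103 in suckling and 28.9 to 93.3 in weaned piglets, as multiples of the 75th percentile. ACTA1 and CKM were thus not absent and were well above background on every array. ACTA1, like DES, was highest in suckling replicate 3 and lowest in weaned replicate 2. CKM, like MYL9, was highest in weaned replicate 3 and lowest in weaned replicate 2. The source of these signals was not tested.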

How the data were processed

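The authors' deposited scanner files hold spot intensity read with Agilent Feature Extraction 10.7, per the submitters' processing notes and the file headers; the processed intensity had been background-subtracted within each array. The deposited value table gives log2 signals for these arrays, in the same order as the intensities and with a common median of 5.50, scaling not given in the sources used here. Control spots were left out, outlier spots set to missing, repeated spots averaged and the 75th percentile of each array subtracted on the log2 scale. A probe was tested when well above background on at least 4 arrays with at least 3 values per group. Of 43603 probes, 6924 were named by RefSeq accession through a gene table of Sscrofa11.1, used for names alone. Groups were compared with limma 3.58.1 (lmFit, then eBayes, in R 4.3.3), in two-sided tests with the group alone in the model, tested on simulated data. The number of arrays limits the precision.

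Members and lists were chosen with earlier results of these data known; the pair correlations, the spans between piglets and their alternatives were added after the values were seen. Named were all members, from each companion list the 3 genes with the smallest p, the 2 brightest markers of each cell type, and the 2 genes most like each member; HSPA1L was named after its values were seen. Alternatives were quantile and median scaling, normexp (offset 50, median spot and local background intensity), the deposited log2 table, filters, outlier spots kept, a robust trend, array weights, the replicate block, probe means and each array left out. No probe, promoter or protein sequence was used here.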

Additional observations from a re-analysis of the deposited data

Results flagged for a closer look

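In 110 groups of 4 piglets, over the members and the other genes named by the rule, 6 had 1 piglet standing apart, about the 5.5 that chance alone would give. The figure in brackets is that piglet's distance to its nearest neighbour as a share of the group's range. Weaned replicate 3 was lowest for HSP90AA1 (0.916), at 6.17 against 7.71 to 7.85, and for FKBP4 (0.887), an HSP90 co-chaperone, at 0.09 against 1.09 to 1.22. Weaned replicate 2 was highest for HSBP1 (0.939), at 4.56 against 4.35 to 4.36. Suckling replicate 1 was lowest for APOA4 (0.856), at 7.23 against 9.11 to 9.42. DES, a filament protein of muscle, was highest in suckling replicate 3 (0.864) and lowest in weaned replicate 2 (0.918).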

How the results depend on the processing

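No heat shock member passed under the 11 alternatives run, and no companion gene under 10 of them (probe means were run for members only), nor with any array left out. The count of 54 probes past the threshold over the whole array was 0 with normexp background correction, 328 with array weights and 0 with the replicate block, and between 9 and 553 with 1 array left out, 553 of them without suckling replicate 1. Replicate numbers were not taken as pairs: deviations of same-numbered arrays from their group means correlated at 0.37, 0.01, 0.19 and -0.02 across probes, which leaves shared litters unsettled. On both slides the replicate number also went with the position of the array on the slide. A shared litter and a shared position therefore cannot be told apart by that number. The block changed no call of a member. The difference of HSPB1 turned to -0.046 with quantile normalisation, -0.020 with median scaling, -0.052 with the deposited table and -0.029 with the mean over its probes. That of HSP90AB1 was -0.0039 with median scaling, and that of HSP90AA1 was 0.12 with normexp and 0.12 with array weights; the cause was not tested. With 1 array left out, the differences ran from -0.63 to 0.20 for HSP90AA1, -0.065 to 0.13 for HSP90AB1, 0.10 to 0.54 for HSPA8, -0.25 to 0.33 for HSPB1, -0.95 to 0.21 for HSPH1 and -2.40 to -0.98 for HSP70.2. Normexp shifted the median difference of all tested probes by -0.14. It widened the span between the highest and lowest piglet to 2.51 for HSP90AB1, 2.78 for HSPA8 and 3.00 for HSPB1 (log2), whereas that of HSP70.2 lay between 4.26 and 4.70 under the 5 scaling, background and spot settings, normexp included. The 1 correlated pair became 8 with normexp, 0 after centring on group means with exchanges within groups, and 0 to 3 with 1 array left out; the correlations, the spans and these alternatives were chosen after seeing the data. The slide as a block was not run, since each slide held 1 group.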

Other observations

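CHORDC1, an HSP90 co-chaperone induced by heat shock, was singled out after its values were seen. Its level was 2.39, 0.79, 1.76 and 1.38 in suckling and 1.41, 1.70, 0.27 and 2.60 in weaned piglets, so its lowest piglets, weaned replicate 3 and suckling replicate 2, were those of HSPH1 and HSP90AA1. HSPE1, the mitochondrial partner of HSPD1, was also chosen after its values were seen. It was 7.47, 6.21, 7.12 and 6.88 in suckling and 6.97, 7.23, 6.53 and 7.38 in weaned piglets, again lowest in suckling replicate 2 and weaned replicate 3, with a span of 2.38-fold. TOMM20 ran the opposite way to HSP70.2 and HSPH1, at 0.81, 1.20, 0.79 and 0.96 in suckling and 1.12, 1.08, 1.25 and 0.86 in weaned piglets. Some chaperone genes of the companion lists, likewise picked by their values, also ran against members over the 8 piglets. DNAJB12, a DNAJ protein, had Pearson's r = -0.83 with HSP90AA1 and -0.71 with HSPA8. HSPA1L had r = -0.73 with HSP90AA1, and PFDN6 had r = -0.64 with HSP70.2. These patterns are descriptions of 8 piglets.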
